A study of Homo sapiens with 4 samples.

Results

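Long intergenic non-coding RNAs are transcripts of RNA polymerase II that lie between protein-coding genes and carry no long reading frame. They are usually spliced and polyadenylated like messenger RNA. Many are made at low levels and are turned over in the nucleus, where the RNA exosome trims or degrades them, while a few accumulate and bind proteins or microRNAs. The name LINC with a number is given to such genes before a function is known, and several have since been renamed for a function or reclassified as genes for very small proteins. The 60 genes described here are those of the counts table whose name is LINC followed by digits, with no antisense suffix, and whose counts over the 4 libraries sum to at least 100. They were chosen from 428 rows with such a name and from 40205 rows in all. Of the other 368 rows, 241 had 0 counts in every library and 127 had between 1 and 99. The sum over both groups set the choice, so the overall abundance of these genes is a description, while the contrast between the groups was not used.

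The libraries came from cells labelled SKOV3, a human ovarian cancer cell line, grown in serum-containing medium. The 2 control libraries are labelled as control with no agent named, and the 2 Rg3 libraries from cells exposed for 24 h to 80 µg/mL of 20(S)-Rg3, a saponin of ginseng. Finding long non-coding RNAs that respond to the exposure was the aim of the study. The labels speak of pooled RNA and name no separate cultures, so every p-value rests on the spread among 4 libraries, and that spread may be technical.

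Total counts ran from 24482846 to 30132517 per library, and the median absolute log2 gap over all genes tested was 0.264 between the Rg3 libraries and 0.13 between the controls. Markers of the cell line gave a mixed picture. KRT7, a simple-epithelium keratin, lay between 2388 and 2565 CPM (read counts scaled to a common library size, with TMM factors), and VIM, the mesenchymal filament protein, between 612.2 and 664.2 CPM. The keratin KRT8 was at 1753 to 2467 CPM with overlapping groups, and KRT19 had at most 2 counts. KRT18, the partner keratin of KRT8, was at 2302 and 2817 CPM in the control libraries against 1557 and 2248 after Rg3 (log2 fold change −0.43, SE 0.20). MUC1, an epithelial mucin, was at 1.22 and 1.82, then 2.95 and 2.28 CPM (log2 fold change 0.79, SE 0.32). The groups were separate for these last genes, KRT18 and MUC1, each with an edgeR adjusted p of 0.9993. EPCAM, an epithelial surface protein, had 0 counts in all 4 libraries, and PAX8, a factor of Müllerian epithelium, had 8 to 18. As background, SKOV3 is known for an amplified ERBB2 gene. In these libraries ERBB2 was at 45.21 to 53.54 CPM, values chosen for display after they were seen. The identity of the cells was not tested further, and they are called here as their label does. Of the 5 leukocyte markers, CD3E and MS4A1 were at 0 throughout and PTPRC had at most 3 counts, while CD68 was at 10.46 to 21.31 CPM. The summed level of those 5 was 21.55 and 17.11 CPM in controls and 17.66 and 10.54 with Rg3. For the 4 endothelial markers it was 18.83 and 19.83, then 16.95 and 16.48, nearly all of it CDH5. The 5 fibroblast markers summed to 29.99 and 32.92, then 39.12 and 29.48 CPM, most of it PDGFRB at 27.68 to 34.28 CPM. COL3A1 and LUM had at most 4 counts in any library.

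Several of the 60 loci are hosts of small RNAs, and their microRNAs are shown first because they tie a pair of these loci together. LINC00478, now MIR99AHG, holds on its own strand the genes of miR-99a, let-7c and miR-125b-2. LINC00085, now named SPACA6 and classed as protein-coding, holds those of miR-99b, let-7e and miR-125a. The mature 5p sequences from RefSeq (GRCh38.p14) are given 5′ to 3′ with the seed, bases 2 to 8, in capitals.
hsa-miR-99a-5p: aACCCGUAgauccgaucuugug
hsa-miR-99b-5p: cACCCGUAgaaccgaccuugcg
hsa-let-7c-5p: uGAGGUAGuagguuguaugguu
hsa-let-7e-5p: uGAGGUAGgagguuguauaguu
hsa-miR-125b-5p: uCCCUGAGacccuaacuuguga
hsa-miR-125a-5p: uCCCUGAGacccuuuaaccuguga
Each microRNA of the first locus shares its seed with 1 of the second, so 3 seeds cover all 6. LINC00478 was at 5.07 and 6.32 CPM in the control libraries against 4.22 and 5.07 after Rg3, with both Rg3 libraries below both controls by a narrow margin. The log2 fold change was −0.30 (SE 0.23, edgeR adjusted p = 0.9993) and ran from −0.44 to −0.13 when 1 library was left out. LINC00085 was at 2.56 and 2.16 CPM in the control libraries against 2.24 and 1.83 after Rg3 (log2 fold change −0.21, SE 0.28), and here the groups overlapped. The table also has rows for the microRNA genes themselves, with few counts. The 2 controls, followed by the 2 Rg3 libraries, held 1, 5, 1 and 9 counts of MIR99A, 2, 1, 1 and 14 of MIRLET7C, and 4, 1, 1 and 3 of MIR125B2. MIR99B, MIRLET7E and MIR125A had 0 counts in both controls and 0 to 5 with Rg3. The libraries were made from RNA broken into fragments longer than a mature microRNA, so these rows say nothing of mature microRNA levels. LINC00669, now MIR924HG, was a further host, at 2.52 and 2.12, then 2.11 and 2.37 CPM, and LINC00338, now SNHG20, holds miR-6516 and was at 7.67 and 6.47, then 6.62 and 6.44 CPM.

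The reads of the 60 genes were concentrated in a few loci. Together they took 0.0705% and 0.06468% of all counts in the controls and 0.06834% and 0.0625% in the Rg3 libraries. The order was control 1, Rg3 1, control 2, Rg3 2, so neither group lay above the other. The Rg3 mean minus the control mean was −0.00217 percentage points, with p = 0.667 in a two-sided exact permutation test, for which the smallest possible value with 2 libraries against 2 is 0.333. The difference was 0.000739 without control 1 and 0.000749 without Rg3 replicate 2, so its sign rests on single libraries. LINC00657 alone gave 18.7% of the reads of the 60, the first 2 genes gave 32.5%, the first 12 gave 66.9% and the first 30 gave 90.6%. Read counts rise with transcript length and transcript lengths were not used here, so this is an order of reads, not of levels per length. All 60 genes passed the filter on low counts. At the lower limit LINC00921 entered with exactly 100 counts, LINC00893 with 111 and LINC01011 with 112, whereas LINC00936 with 97, LINC00176 with 95 and LINC00997 with 94 stayed out.

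**Figure D1:**
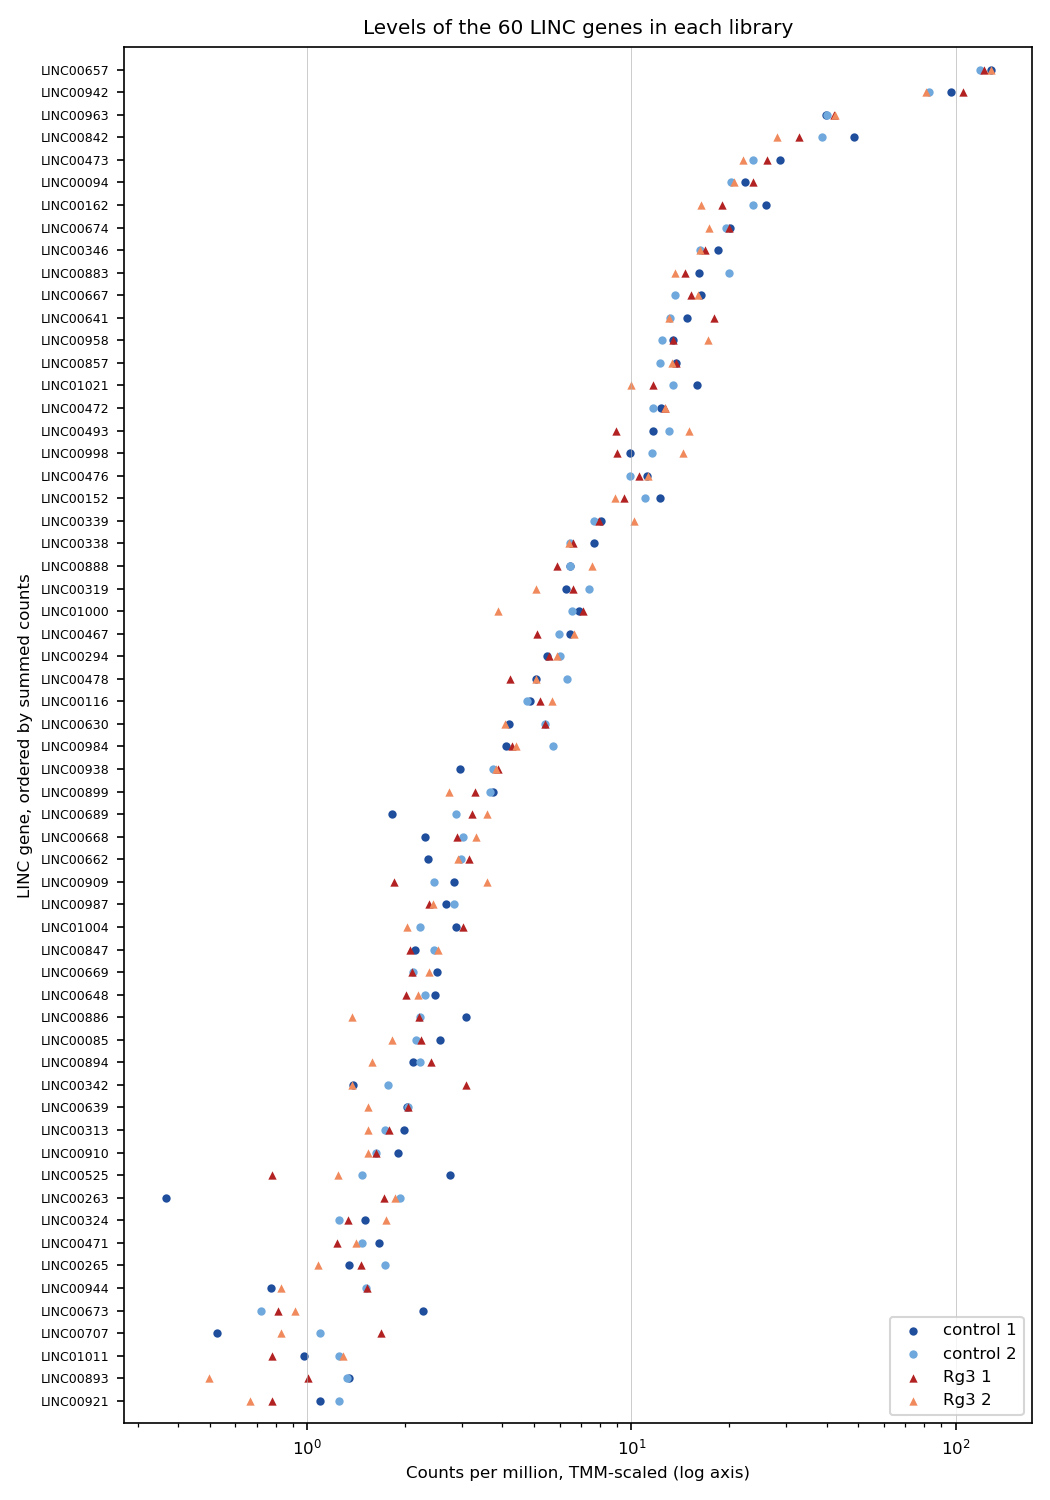
Level of each of the 60 LINC genes in CPM (log axis), 1 point per library, circles for the 2 controls and triangles for the 2 Rg3 libraries, genes ordered by summed counts. The 4 points of LINC00657 lie between 118.9 and 128.4, and a wide spread is seen for low genes such as LINC00263, where control 1 at 0.365 stands apart from the other libraries.

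In cells given Rg3, 0 of the 60 genes were called higher and 0 lower with edgeR's quasi-likelihood test at an adjusted p under 0.05. Over all 16323 genes tested the same rule called 0.0306% higher and 0.0% lower, 5 genes in all, so a count of 0 among 60 was near the background. The smallest adjusted p of the 60 was 0.9526, for LINC00162. Without adjustment 4 of the 60 had p under 0.05, all of them lower, which is 6.67% against 4.73% of all genes (1.83% higher and 2.9% lower). In bulk RNA, fewer cells making a transcript and less transcript per cell cannot be told apart. DESeq2 and limma voom also called 0 of the 60. DESeq2 called 0.374% of the 14424 genes to which it gave an adjusted p, and voom called 0.0306% of 16323. The count stayed at 0 in edgeR with no filter on low counts, which called 0.834% of 25668 genes. It was also 0 with the replicate number as a block, which called 0.95% of 16323.

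Most of the 60 log2 fold changes were small. Their median was −0.059, with the middle part of the list from −0.232 (lower quartile) to 0.067 (upper quartile), against 0.014, −0.145 and 0.143 over all genes tested. Values below 0 were found for 36 genes and above 0 for 24, that is 60% below 0 against 47.5% of all genes. Both Rg3 libraries lay below both controls for 15 of the 60 (25%, against 17.0% of all genes tested) and above both for 6 (10.0%, against 15.3%). Among 288 other long non-coding RNA genes with at least 100 counts the median was −0.041, with 161 below 0 and 127 above. Without Rg3 replicate 1 the median of the 60 was −0.138, so it depends on this library. The median over all genes in that fit is not given here, so a shift of these genes alone cannot be told from a general shift. With a minimum of 200 counts in place of 100 the median of the LINC genes kept was −0.012. For the 20 genes with 1000 or more counts the median was 0.035, and for the 40 with fewer it was −0.115.

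**Figure D2:**
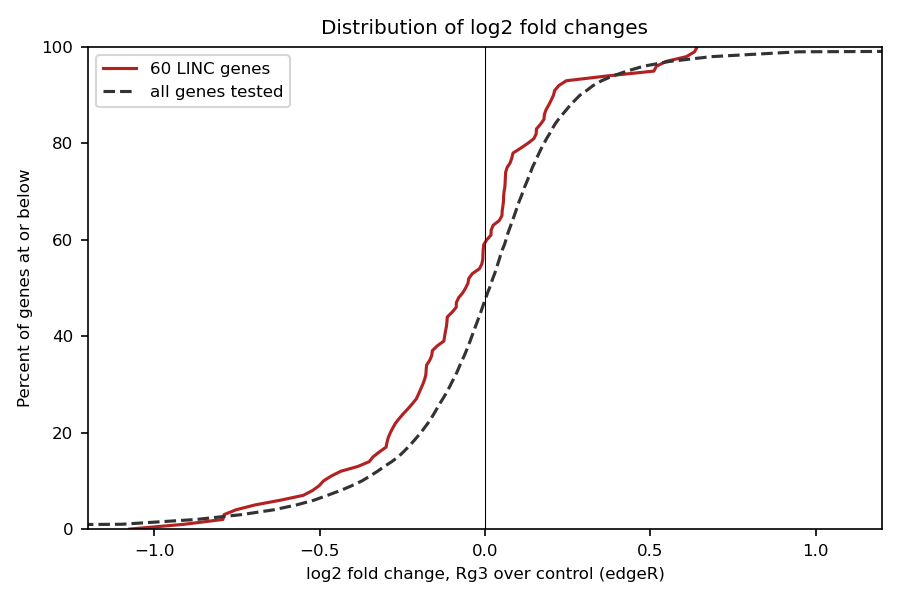
Percent of genes (vertical axis) at or below each log2 fold change of Rg3 over control (horizontal axis, edgeR), as a solid line for the 60 LINC genes and a dashed line for all 16323 genes tested. Through the middle of the plot the line of the 60 lies to the left of the other, with the median at −0.059 for the 60 and at 0.014 for all genes.

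**Figure D3:**
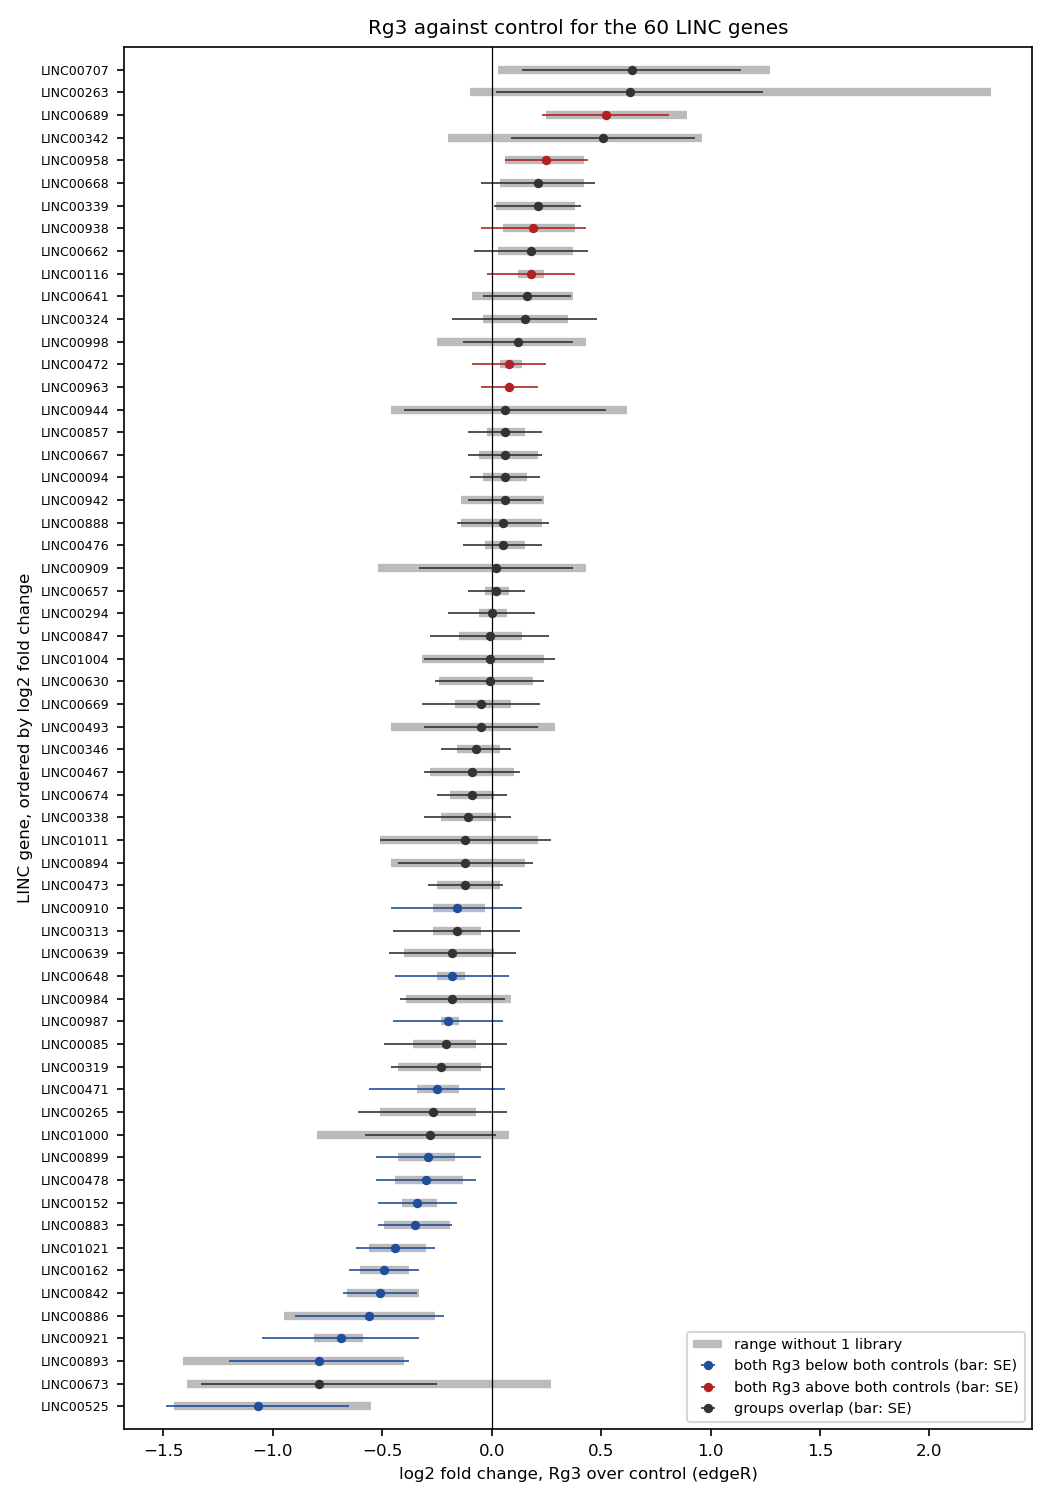
Log2 fold change of Rg3 over control (edgeR, horizontal axis) for each of the 60 LINC genes, with thin bars for the SE and grey bands for the range of the fits that each left out 1 library; blue and red mark genes whose Rg3 libraries both lie below or both above the controls. LINC00525 stands lowest at −1.07, and the widest band belongs to LINC00263, from −0.10 to 2.28.

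NORAD, listed under its older name LINC00657, is an abundant cytoplasmic RNA that binds the RNA-binding protein PUM2 and is known for a role in genome stability. It was at 128.4 and 118.9 CPM in the control libraries against 122.2 and 128.3 after Rg3. The groups overlapped, with a log2 fold change of 0.02 (SE 0.13). PUM2 was at 20.54 and 25.73, then 28.08 and 26.82 CPM, with both Rg3 libraries above both controls, and was not called (log2 fold change 0.25, SE 0.16).

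Other loci with many reads also had nearly level values. LINC00942 was at 96.6 and 82.8 CPM in the control libraries against 105.5 and 80.9 after Rg3, so libraries within a group differed more than the group means (log2 fold change 0.06, SE 0.17). LINC00963, studied in tumour metastasis as MetaLnc9, was at 39.8 and 40.2 CPM in the control libraries against 42.1 and 42.4 after Rg3. Both Rg3 libraries were above both controls, but the log2 fold change was 0.08 (SE 0.13), and the range without 1 library was 0.07 to 0.09. LINC00473, which is known to be induced through cAMP and the factor CREB, was at 28.8 and 23.7, then 26.2 and 22.1 CPM (log2 fold change −0.12, SE 0.17). In this case replicate 1 was above replicate 2 in each group. LINC00674, LINC00667 and LINC00641 had log2 fold changes of −0.09, 0.06 and 0.16, each with overlapping groups.

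Among the 20 genes with 1000 or more counts the largest differences were downward, and none passed the adjusted threshold. LINC00842 was at 48.4 and 38.6 CPM in the control libraries against 33.0 and 28.2 after Rg3. Both Rg3 libraries were below both controls, and the log2 fold change was −0.51 (SE 0.17, unadjusted p = 0.01826, adjusted p = 0.9558 in edgeR). Fits without 1 library ran from −0.66 to −0.33, the latter without control 1. Its nearest protein-coding gene, ANXA8L1, an annexin gene, was at 43.0 and 30.8 CPM in the control libraries against 16.5 and 29.3 after Rg3, and its log2 fold change was −0.69 (SE 0.28, edgeR adjusted p = 0.9993). That gene has near-identical copies in the table whose reads could be exchanged, ANXA8 at 14.9 and 36.1, then 27.1 and 27.4 CPM, and ANXA8L2 at 55.9 and 55.9, then 30.2 and 38.4 CPM. The values of the single annexin copies are therefore uncertain, and whether LINC00842 shares reads with another copy of its region was not tested.

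PICSAR, listed as LINC00162, is an RNA described in squamous skin cancer as repressed by the p38 kinase. It was at 26.0 and 23.7 CPM in the control libraries against 19.1 and 16.4 after Rg3. The groups did not overlap. The log2 fold change was −0.49 (SE 0.16, edgeR adjusted p = 0.9526) and ran from −0.60 to −0.38 over fits without 1 library. LINC00883, now DUBR, was at 16.2 and 20.0 CPM in the control libraries against 14.7 and 13.6 after Rg3 (log2 fold change −0.35, SE 0.17, adjusted p = 0.9993, and −0.19 without control 2). CYTOR, listed as LINC00152 and known as a regulator of cytoskeletal genes, was at 12.2 and 11.0 CPM in the control libraries against 9.51 and 8.89 after Rg3 (log2 fold change −0.34, SE 0.18). It has a near-identical copy, MIR4435-1HG, which was at 17.9 and 16.2, then 16.3 and 16.7 CPM. Summed over the copies the level was 30.1 and 27.2 CPM in controls and 25.8 and 25.6 with Rg3, so the sum lay lower with Rg3 by a smaller proportion than LINC00152 alone.

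Without Rg3 replicate 1, edgeR called 3 of the 60 lower and 0 higher, 5.0% against 2.69% of all genes called lower and 2.53% called higher in that fit. They were LINC00842 (log2 fold change −0.62, adjusted p = 0.02803), LINC00162 (−0.60, adjusted p = 0.02597) and LINC01000 (−0.80, adjusted p = 0.04843). That fit rests on a single Rg3 library, assumed to vary like the controls. LINC01000 was at 6.90 and 6.55 CPM in the control libraries against 7.11 and 3.86 after Rg3, so its call came from Rg3 replicate 2 alone, and the log2 fold change was 0.08 without that library. Leaving out each of the other libraries gave 0 calls among the 60, where the fit lacking control 1 called 0.635% of all genes, that lacking control 2 called 0.291%, and that lacking Rg3 replicate 2 called 2.68%.

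A further 3 of the loci with more than 1000 reads have been studied in tumours. PURPL, listed as LINC01021, was at 15.95 and 13.4 CPM in the control libraries against 11.6 and 9.97 after Rg3, again with both Rg3 libraries below both controls (log2 fold change −0.44, SE 0.18, adjusted p = 0.9993, unadjusted p = 0.0456). PRECSIT, listed as LINC00346, is described in squamous skin cancer, and was at 18.5 and 16.2, then 16.9 and 16.3 CPM (log2 fold change −0.07, SE 0.16). LINC00472, studied in breast cancer, was at 12.3 and 11.6, then 12.7 and 12.7 CPM (log2 fold change 0.08, SE 0.17). The changes of LINC00346 and LINC00472 were smaller than their SEs, so no direction shared by the 3 genes can be read.

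LINC00842 and LINC01021 are the genes with the smallest unadjusted p for which the RefSeq promoter table holds an entry, and their windows from 250 bases before to 50 bases after the start are shown for how unlike they are (GRCh38.p14, 5′ to 3′ on the plus strand for each, CG dinucleotides in capitals).
LINC00842, chr10:46398112-46398411: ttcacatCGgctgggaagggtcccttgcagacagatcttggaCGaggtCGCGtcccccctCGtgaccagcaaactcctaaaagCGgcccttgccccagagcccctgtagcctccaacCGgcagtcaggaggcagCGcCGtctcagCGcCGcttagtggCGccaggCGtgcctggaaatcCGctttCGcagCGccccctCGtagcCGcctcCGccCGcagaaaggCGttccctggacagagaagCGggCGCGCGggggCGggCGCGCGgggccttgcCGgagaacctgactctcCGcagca
LINC01021, chr5:27472042-27472341: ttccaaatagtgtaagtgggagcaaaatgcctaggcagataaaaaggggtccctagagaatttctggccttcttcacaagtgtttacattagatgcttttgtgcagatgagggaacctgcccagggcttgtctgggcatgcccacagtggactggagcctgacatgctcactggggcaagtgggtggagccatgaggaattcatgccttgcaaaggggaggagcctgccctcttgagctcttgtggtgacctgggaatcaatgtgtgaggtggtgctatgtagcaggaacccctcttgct
The window of LINC00842 holds 31 CG dinucleotides at 68.3% G and C, and that of LINC01021 holds 0 at 52.0%. Of the 60 genes 45 had an entry. Their median G and C content was 60.7%, with a range of 39.0% to 81.0%, against 58.3% over 27305 promoters, 1 per gene of the table. A ratio of observed to expected CG of at least 0.6 was found in 28 of the 45 (62.2%) and in 49.0% of all promoters. Searched on both strands, the CCAAT box (CCAAT) was present in 18 of the 45 (40.0%, against 35.7% of all), the GC box (GGGCGG) in 22 (48.9%, against 44.6%) and the TATA box (TATAAA) in 3 (6.67%, against 11.95%). The site of the factor NRF1 was present in 1, LINC00471 (2.22%, against 6.28%). The cAMP response element TGACGTCA was found in 2, LINC00630 and LINC00265 (4.44%, against 1.98%). A palindromic element of this spelling was not among the letters of the LINC00473 window. The sterol element spelled TCACNCCAC was found in 0 of the 45, and in 1.15% of all promoters. The 27305 promoters were not limited by read counts, whereas the 45 genes all had at least 100 counts, so these shares compare unlike sets. The matches describe letters only.

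OLMALINC, listed as LINC00263, lies next to SCD, the gene of the stearoyl-CoA desaturase that makes monounsaturated fatty acids. LINC00263 was at 0.365 and 1.93 CPM in the control libraries against 1.72 and 1.87 after Rg3. Control 1 stood apart with 9 counts, where the other libraries had 45 to 53. Its exact 95% Poisson interval, which covers counting error only, was 0.167 to 0.694 CPM, below the 1.44 to 2.54 CPM of control 2. The log2 fold change was 0.63 (SE 0.61) with both controls, −0.10 without control 1 and 2.28 without control 2, so it rests on which control is used. SCD was at 126.5 and 207.8 CPM in the control libraries against 339.8 and 310.6 after Rg3 (log2 fold change 0.96, adjusted p = 0.6081). Control 1 was thus the lowest library for the RNA and for its neighbour, and for SCD the groups did not overlap. The promoter window of LINC00263 is shown because of this shared low library, with its 2 CCAAT motifs in capitals (GRCh38.p14, plus strand).
LINC00263, chr10:100373326-100373625: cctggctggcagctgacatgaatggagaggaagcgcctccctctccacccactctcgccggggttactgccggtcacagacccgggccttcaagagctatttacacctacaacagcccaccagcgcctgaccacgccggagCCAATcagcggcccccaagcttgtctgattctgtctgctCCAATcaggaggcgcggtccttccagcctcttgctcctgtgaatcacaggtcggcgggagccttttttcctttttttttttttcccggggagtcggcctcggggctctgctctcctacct

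Of the 60 genes 6 are now classed as protein-coding in RefSeq, among them 3 listed here as genes of very small proteins, and 54 as long non-coding RNA. SMIM26, listed as LINC00493, encodes a small mitochondrial membrane protein and was at 11.7 and 13.1 CPM in the control libraries against 8.96 and 15.0 after Rg3. SMIM30, listed as LINC00998, encodes a small membrane protein of the endoplasmic reticulum and was at 9.91 and 11.6, then 9.03 and 14.5 CPM. In both genes Rg3 replicate 1 was the lowest library and Rg3 replicate 2 the highest, so the controls lay inside the Rg3 range. MTLN, listed as LINC00116, encodes mitoregulin of the inner mitochondrial membrane and was at 4.87 and 4.77, then 5.23 and 5.69 CPM, with both Rg3 libraries above both controls (log2 fold change 0.18, SE 0.20, adjusted p = 0.9993). BRD3OS, listed as LINC00094, was at 22.4 and 20.3, then 23.8 and 20.8 CPM, and INAFM2, listed as LINC00984, at 4.10 and 5.71, then 4.29 and 4.40 CPM. The sixth is SPACA6, given above. The median log2 fold change of the 6 was 0.006, and that of the other 54 was −0.076.

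Further genes studied in cancer had overlapping groups or narrow margins. LINC00958, also called BLACAT2 for its description in bladder cancer, was at 13.4 and 12.4 CPM in the control libraries against 13.5 and 17.3 after Rg3. Rg3 replicate 2 was high, and the log2 fold change of 0.25 (SE 0.19) became 0.06 without it. LINC00857 was at 13.7 and 12.3, then 13.7 and 13.4 CPM, LINC00339 at 8.04 and 7.64, then 7.95 and 10.2 CPM, and LINC00467 at 6.45 and 5.98, then 5.10 and 6.64 CPM. LINC00662 had a log2 fold change of 0.18 (SE 0.26). LINC00673 was at 2.27 and 0.719 CPM in the control libraries against 0.812 and 0.913 after Rg3, so control 1 was the high library here, and the log2 fold change of −0.79 (SE 0.54) became 0.27 without it. Of 22 studied LINC genes listed for this comparison 15 were among the 60. LINC00511, LINC00461, LINC00665, LINC00941, LINC00520 and LINC00460 had at most 24 counts in all 4 libraries together, and LINC01133 had no row under this name.

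Among genes near 1 to 3 CPM the groups were separate in several cases, on few reads. LINC00525 was at 2.76 and 1.48 CPM in the control libraries against 0.779 and 1.25 after Rg3, from 68, 39, 24 and 30 counts. Its log2 fold change was −1.07 (SE 0.42, adjusted p = 0.9993, unadjusted p = 0.03721), with −0.55 without control 1 and −1.45 without control 2. LINC00886 was at 3.09 and 2.23, then 2.21 and 1.37 CPM (log2 fold change −0.56, SE 0.34). Leaving out Rg3 replicate 2 gave −0.26, and leaving out Rg3 replicate 1 gave −0.95. Its neighbour LEKR1 was at 1.18 and 1.21, then 0.617 and 0.664 CPM (log2 fold change −0.90, edgeR adjusted p = 0.9993). LINC00893, now EOLA1-DT, was at 1.34 and 1.32, then 1.01 and 0.498 CPM (log2 fold change −0.79, SE 0.41), which became −0.40 with Rg3 replicate 2 left out and −1.41 with the other Rg3 library left out. LINC00921 was at 1.10 and 1.25, then 0.779 and 0.664 CPM (log2 fold change −0.69, SE 0.36). The neighbour of LINC00893, EOLA1 (row CXorf40A), had a log2 fold change of 0.05. On the higher side LINC00689 was at 1.83 and 2.88 CPM in the control libraries against 3.21 and 3.57 after Rg3 (log2 fold change 0.52, SE 0.29, with 0.25 without control 1 and 0.89 without control 2), and LINC00938 at 2.96 and 3.75, then 3.86 and 3.82 CPM (log2 fold change 0.19, SE 0.24, with 0.05 without control 1 and 0.38 without control 2). The unadjusted p of LINC00886, LINC00893, LINC00921, LINC00689 and LINC00938 was at least 0.09023 in edgeR.

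The remaining genes had few reads or level values, and each is given with the 2 controls first. LINC00476, now ERCC6L2-AS1 and so an antisense RNA by name, was at 11.2 and 9.91, then 10.6 and 11.3 CPM, and its partner ERCC6L2 at 16.4 and 15.4, then 13.9 and 15.6 CPM. LINC00888, the small nucleolar RNA host SNHG33, was at 6.45 and 6.47, then 5.88 and 7.56 CPM. LINC00319 was at 6.29 and 7.42, then 6.62 and 5.07 CPM, LINC00294 at 5.48 and 6.02, then 5.58 and 5.90 CPM, and LINC00630 at 4.18 and 5.41, then 5.42 and 4.07 CPM. These 5 had overlapping groups and log2 fold changes between −0.23 and 0.05. The groups were separate, with Rg3 lower, for LINC00899 (log2 fold change −0.29, SE 0.24), LINC00471 (−0.25, SE 0.31), LINC00987 (−0.20, SE 0.25), LINC00648 (−0.18, SE 0.26) and LINC00910 (−0.16, SE 0.30). LINC00899 was the most read of these 5, at 3.74 and 3.67, then 3.28 and 2.74 CPM, and LINC00910 was separated by the narrowest margin, at 1.91 and 1.63, then 1.62 and 1.54 CPM. In each of these 5 the SE was near or above the size of the change. The other 9 genes had overlapping groups and levels from 0.771 to 3.32 CPM. Their log2 fold changes were 0.21 for LINC00668, 0.15 for LINC00324, 0.06 for LINC00944, −0.01 for LINC01004, −0.01 for LINC00847, −0.12 for LINC00894, −0.16 for LINC00313, −0.18 for LINC00639 and −0.27 for LINC00265, with SEs from 0.26 to 0.46.

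Several of the 60 differed between libraries of the same group by more than counting error. The exact 95% Poisson intervals of the 2 Rg3 libraries were separate for 10 genes and those of the 2 controls for 8, with LINC00942, LINC00842 and LINC00473 in both sets. The share of all genes tested with separate intervals is not given here, so these numbers cannot be called particular to the 60. Such intervals narrow as counts rise, so a small gap can separate them for the most read genes. The largest gap between the Rg3 libraries was that of LINC00342, at 3.08 CPM (95 counts) in replicate 1 and 1.37 CPM (33 counts) in replicate 2, with the controls at 1.38 and 1.78. The next were LINC01000, given above, and LINC00909, now ZNF407-AS1, at 1.85 and 3.57 CPM with Rg3 and at 2.84 and 2.46 in controls. ZNF407, the neighbour it is now named for, was at 11.6 and 7.06 CPM in the Rg3 libraries, the opposite order, and its span does not overlap that of LINC00909 in the newer RefSeq assembly. LINC00707 was at 1.69 and 0.830 CPM with Rg3 and at 0.528 and 1.10 in controls. Its intervals overlapped within each group, at 1.26 to 2.21 and 0.507 to 1.28 CPM with Rg3, so its gap was within counting error. The median absolute log2 gap over the 60 was 0.217 between the Rg3 libraries and 0.181 between the controls, against 0.264 and 0.13 over all genes tested.

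**Figure D4:**
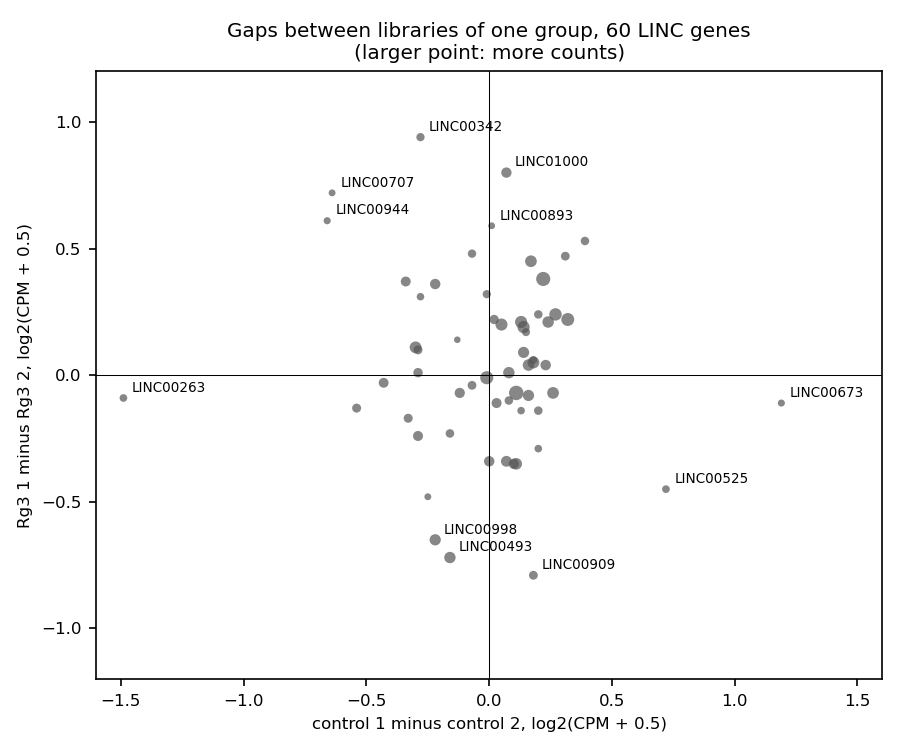
Difference between the 2 controls (horizontal axis) and between the 2 Rg3 libraries (vertical axis) in log2(CPM + 0.5) for each of the 60 LINC genes, with larger points for more counts. LINC00263 and LINC00673 lie far out along the control axis, at −1.49 and 1.19, and LINC00342 is highest on the Rg3 axis, at 0.94.

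Genes of the nuclear exosome and its adaptors, the machinery that turns over many such RNAs, were read beside the 60. All 18 listed genes were tested and 0 were called in either direction, with a median log2 fold change of 0.056, 13 above 0 and 5 below. Both Rg3 libraries lay above both controls for 4 of the 18, EXOSC3, EXOSC8, EXOSC10 and MPHOSPH6, and below both for 0, against 15.3% and 17.0% of all genes. EXOSC10, the nuclear exonuclease of the complex, was at 86.8 and 80.3 CPM in the control libraries against 88.5 and 88.1 after Rg3 (log2 fold change 0.08, SE 0.13). SKIV2L2, the helicase that feeds RNA to it, was at 63.3 and 69.3, then 66.7 and 79.3 CPM. The median of Rg3 1 minus Rg3 2 over the 18 was −0.218, so the higher library was Rg3 replicate 2 for most of them. The 60 loci were spread over 21 chromosomes, with at most 6 on any 1, and by the spans of the newer RefSeq assembly 12 overlapped a protein-coding gene. Of their nearest protein-coding neighbours 40 were tested and 0 were called, with a median log2 fold change of 0.041 and a range from −0.9 (LEKR1) to 0.96 (SCD). Of the 41 LINC genes with a tested neighbour 18 had a log2 fold change of the same sign as that neighbour, in values rounded to 2 decimals. LINC00346 with ANKRD10 and LINC00294 with TCP11L1 were not counted among the 18, because 1 value of each pair rounded to 0. The shared signs of ANXA8L1, LEKR1 and SCD with their LINC genes thus do not stand for the rest.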

How the data were processed

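The authors deposited raw read counts per gene symbol, not normalised, for 4 libraries of rRNA-depleted total RNA per the labels' protocols. The genome build was GRCh37, per the submitters' processing notes. The aligner, counting tool, annotation and strand setting are not given in the sources used here, so reads of overlapping antisense genes cannot be told apart. Of 40205 rows, 14537 had no count. Counts were fitted over the whole table in R 4.3.3 with edgeR 4.0.16 (filterByExpr at 10 counts and a total of at least 15, TMM scaling, quasi-likelihood test on treatment with 2 residual degrees of freedom, Benjamini-Hochberg adjustment over 16323 genes). SEs came from the F statistic, and CPM values use the TMM-scaled sizes. Log2 gaps between libraries used a pseudocount of 0.5 CPM. Alternatives were DESeq2 1.42.0, limma 3.58.1 voom, other scalings, no filter, a replicate block and leaving out each library. Each share of all genes is over the genes with an adjusted p in that fit, a number that differs between settings. The pipeline was tested on simulated data with changes larger than most of those seen here, so that test does not bear on small changes. Current names, classes, neighbours and promoter and microRNA sequences came from RefSeq (GRCh38.p14). Of the 60 genes 39 matched by symbol and 21 by an older symbol. The members, lists and rule for named genes were chosen with earlier results of these data known. The rule took the 12 genes with most counts, up to 8 per direction whose groups did not overlap, listed and protein-coding genes, those nearest the count minimum and the 5 with the largest gap between the Rg3 libraries. The remaining members are given for completeness, and other genes were chosen after their values were seen. The list of genes for proteins tied to LINC00657 is not reported here, apart from PUM2.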

Additional observations from a re-analysis of the deposited data

How the results depend on the processing

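No call among the 60 genes was made under other scalings (DESeq2 size factors, total counts), with DESeq2, limma voom or no low-count filter. A minimum of 50 counts, which adds genes to the 60, gave none either. A minimum of 200 counts and leaving out the 6 protein-coding genes only drop genes from the 60. Those settings could not have given a call. Over the fits without 1 library the number called ran from 0 to 3, and the 3 were called without Rg3 replicate 1. The median log2 fold change of the 60 ran from −0.138 to −0.042 over these fits and was −0.012 with a minimum of 200 counts. The difference in share of counts ran from −0.00509 to 0.000749 percentage points. The cause of these shifts was not tested. For 19 of the 39 genes that the rule names, the sign turned in at least 1 fit without a library. The log2 fold change ran from −0.03 to 0.08 for LINC00657, from −0.14 to 0.24 for LINC00942, from −0.25 to 0.04 for LINC00473, from −0.04 to 0.16 for LINC00094 and from −0.19 to 0.01 for LINC00674. It ran from −0.16 to 0.04 for LINC00346, from −0.06 to 0.21 for LINC00667, from −0.09 to 0.37 for LINC00641, from −0.02 to 0.15 for LINC00857 and from −0.46 to 0.29 for LINC00493. The range was from −0.25 to 0.43 for LINC00998, from −0.80 to 0.08 for LINC01000, from −0.28 to 0.10 for LINC00467, from −0.39 to 0.09 for LINC00984 and from −0.52 to 0.43 for LINC00909. Values lay from −0.20 to 0.96 for LINC00342, from −0.10 to 2.28 for LINC00263, from −1.39 to 0.27 for LINC00673 and from −0.51 to 0.21 for LINC01011. LINC00909 also turned with limma voom (−0.07). Of the other settings, 232 values of named genes kept direction and side of the threshold. With the replicate number as a block edgeR called 0 of the 60 and 0.95% of all genes, at a median of −0.073 and with LINC00909 at −0.02. The labels do not say that a number marks a shared batch, and same-numbered libraries had a correlation of deviations across genes of 0.213 over all genes tested and −0.083 over the 60. A gene with about 100 counts has about 25 per library, so counting error was large for the lowest genes. Some of the low genes, LINC00263 and LINC00342 among them, differed between same-group libraries by more than counting error.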
